A study of Mus musculus with 7 samples.

Results

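The repeat loci described here lie on proximal mouse chromosome 7, next to the imprinted gene Peg3. All rows of the repeat count table with a start at chr7:6400000-6800000 (mm10) were taken, which gave 662 loci of 3494995 in all: 152 LINE, 318 SINE and 192 LTR elements. The window was chosen by its counts in Mutant against WT, in which many of its loci were low in Mutant. Every difference between Mutant and WT within it, counts of test calls included, is therefore given as a description. Reads were found at 371 of the 662 loci, and 170 averaged 1 read or more per library. The first locus inside the low edge was an ORR1A2 with 55 reads over the 7 libraries, the last one outside it was a MIR with 64 reads, and the pair of loci at the high edge, an RMER10A inside and an ID element outside, had 1 and 0 reads.

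RNA came from whole testes of C57BL/6 embryos at E14.5, with 1 pair of testes per library. The 3 WT libraries were labelled wild-type and the 4 Mutant libraries came from homozygous Glis3 zf5/zf5 embryos, in which a deletion of exon 4 and adjoining intron sequence disrupts the DNA-binding region of the zinc-finger protein GLIS3 in every cell. No other allele and no treatment is named for either group. Ribosomal RNA was removed, first strands were started from random primers and poly-A selection was left out, so RNA without a tail was sequenced too, and the kit did not keep the strand. In such bulk samples, fewer cells of a type and less RNA per cell cannot be told apart.

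Each library held between 3454317 and 4670830 reads on repeat loci, of which 4123 to 8266 lay in the window. Glis3 had 7.63, 6.89 and 2.91 FPKM in WT rep1 to rep3, and the 4 Mutant libraries had 3.86, 3.26, 2.90 and 2.66 FPKM. The last WT value lay within the Mutant range, so that sample is called the library labelled WT rep3, and the main counts, medians and lists are given with and without it. The testis markers Sox9 and Amh were present in every library, at no less than 5.84 and 99.8 FPKM. Read counts are given as CPM, the reads scaled to the repeat reads of the library with TMM factors, a level that is comparable between libraries. FPKM is the level of a gene per length of transcript. A log2 fold change is the difference Mutant minus WT on the log2 scale.

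Peg3 gives its name to a cluster of imprinted genes, in which some genes are read from the chromosome inherited from the father and others from that of the mother. Peg3 and Usp29 are paternally expressed and start back to back, while Zim1 is maternally expressed in mice. LTR elements are remnants of endogenous retroviruses that copy themselves through RNA, LINEs copy themselves with their own reverse transcriptase, and SINEs borrow that enzyme. In fetal male germ cells many of these elements are silenced by DNA methylation that small piRNAs guide, and reads at a single old fragment can also come from any longer transcript that runs through it.

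The repeat sequence shown first is that of the locus at the edge of the stretch described below. This MRLTR33 element, an LTR fragment at chr7:6651845-6651975 on the plus strand (GRCm38), lies in exon 5 of Zim2, a non-coding transcript of the minus strand in GENCODE M21.
MRLTR33: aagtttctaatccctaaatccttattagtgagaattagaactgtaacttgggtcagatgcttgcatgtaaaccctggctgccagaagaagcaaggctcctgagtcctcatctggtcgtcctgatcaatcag
The promoters of Zim2 and Zim1 are shown because the read pattern changed between these genes, and that of Peg3 because its gene held most reads of the window. Each covers 250 bases before to 50 after the RefSeq start (GRCm38.p6), at chr7:6662319-6662618, chr7:6696383-6696682 and chr7:6730370-6730669, all on the minus strand.
Zim2: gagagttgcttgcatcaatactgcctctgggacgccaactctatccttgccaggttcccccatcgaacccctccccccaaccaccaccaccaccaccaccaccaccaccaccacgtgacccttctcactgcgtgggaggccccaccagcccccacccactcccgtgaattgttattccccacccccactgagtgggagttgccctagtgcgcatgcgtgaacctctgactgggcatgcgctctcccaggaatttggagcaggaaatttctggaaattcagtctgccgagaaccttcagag
Zim1: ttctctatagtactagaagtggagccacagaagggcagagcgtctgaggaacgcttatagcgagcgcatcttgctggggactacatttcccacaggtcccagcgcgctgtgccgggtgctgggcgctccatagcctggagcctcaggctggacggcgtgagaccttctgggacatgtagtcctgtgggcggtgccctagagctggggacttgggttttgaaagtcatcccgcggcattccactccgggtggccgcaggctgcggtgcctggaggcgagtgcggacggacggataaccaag
Peg3: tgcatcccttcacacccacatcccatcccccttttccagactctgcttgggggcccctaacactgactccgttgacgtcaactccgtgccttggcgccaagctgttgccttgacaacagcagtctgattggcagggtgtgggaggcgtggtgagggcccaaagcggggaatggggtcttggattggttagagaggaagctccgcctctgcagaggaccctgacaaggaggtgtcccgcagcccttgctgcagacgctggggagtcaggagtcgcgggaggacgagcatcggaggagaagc
The letters GCCATNTT, the core of a site of the factor YY1, were searched on both strands and would stand in capitals. They were absent from these windows and from that of Usp29, and 6.05% of 32851 RefSeq promoters of the same length held them. The windows of Peg3 and Usp29 overlap, so they are not separate cases. The rest of each gene, introns included, was not searched.

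Read along the chromosome, the window fell into stretches with different behavior. An 80346-bp interval between the olfactory receptor gene Olfr1350 and Zim2, at chr7:6571402-6651747, in which GENCODE M21 places no gene, varied widely between libraries. The summed loci of Zim1, Peg3 and Usp29 beside it differed by at most 1.47-, 1.34- and 1.39-fold between any pair of libraries, and those of the interval by up to 61.7-fold. The 662 loci were therefore divided at gene ends, after their values had been seen, into the olfactory receptor segment (306 loci), the interval (101 loci), and the Zim2 (46 loci), Zim1 (54 loci), Peg3 (10 loci) and Usp29 (145 loci) segments. The Peg3 segment held 61.1% of all reads of the window, the interval 18.1% and the Zim1 segment 15.9%. The sum over the window was 1261, 2224 and 1169 CPM in WT and 1421, 1273, 1276 and 1101 CPM in Mutant, which gave 1551 ± 584 (SD, n = 3) in WT against 1268 ± 131 (SD, n = 4) in Mutant. The log2 fold change of this sum was -0.29 with a standard error of 0.18 in edgeR, beside a median of 0.15 over all 6454 bins of 400 kb. Without WT rep2 the sum gave 0.061. With all libraries, the 400 kb before the window, with 861 loci, gave -0.13 (standard error 0.089). The 400 kb after it, with 793 loci, gave -0.30 (standard error 0.16).

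**Figure D1:**
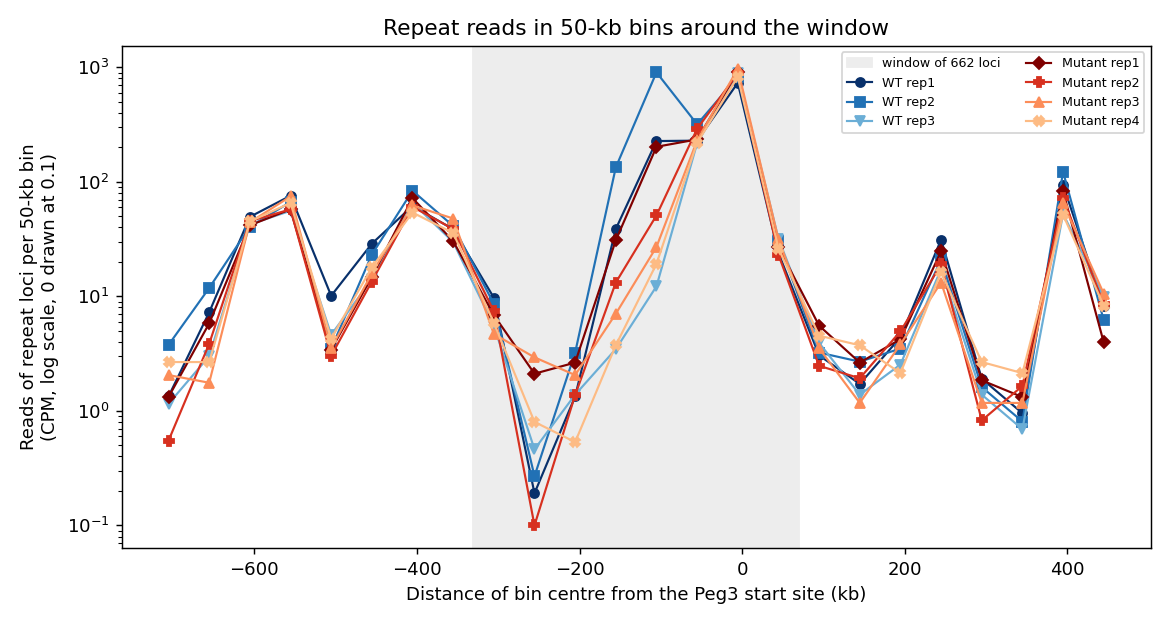
Summed reads of repeat loci (CPM, log axis, with 0 drawn at 0.1) in 50-kb bins against the distance of the bin centre from the Peg3 start site in kb, with 1 line per library and the window shaded. The libraries spread apart over the bins left of Peg3, from 12.2 CPM in the library labelled WT rep3 to 904 CPM in WT rep2 in the bin with the widest spread, and run together over the Peg3 bin, between 731 and 971 CPM.

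In the interval, the 101 loci together had 283, 1083 and 17.5 CPM in WT replicates 1 to 3. Mutant replicates 1 to 4 had 246, 66.8, 34.9 and 24.3 CPM. The order from high to low was thus WT rep2, WT rep1, Mutant rep1, Mutant rep2, Mutant rep3, Mutant rep4 and the library labelled WT rep3, so the groups overlapped through the library labelled WT rep3, and the other WT libraries lay above all Mutant libraries. WT rep2 was 3.83-fold above WT rep1 and 61.7-fold above the library labelled WT rep3, and it alone held 61.7% of the CPM summed over the 7 libraries. WT rep1 and Mutant rep1 lay close together, at a ratio of 1.15, and Mutant rep4 was 1.38-fold above the library labelled WT rep3. These are single libraries without a replicate of their own, and the raw counts behind them were 1481, 4025 and 76 in WT and 931, 243, 119 and 91 in Mutant.

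The group means of the interval were 461 ± 555 (SD, n = 3) in WT and 93.0 ± 103 (SD, n = 4) in Mutant, a log2 ratio of -2.31. The spread within each group was as large as its mean. Without the library labelled WT rep3 the log2 ratio was -2.88, without Mutant rep1 it was -3.46, and without WT rep2 it was -0.69. Outside of the interval, the 561 other loci of the window summed to 1090 ± 97.2 CPM (SD, n = 3) in WT and 1175 ± 70.9 CPM (SD, n = 4) in Mutant, a log2 ratio of 0.11.

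**Figure D2:**
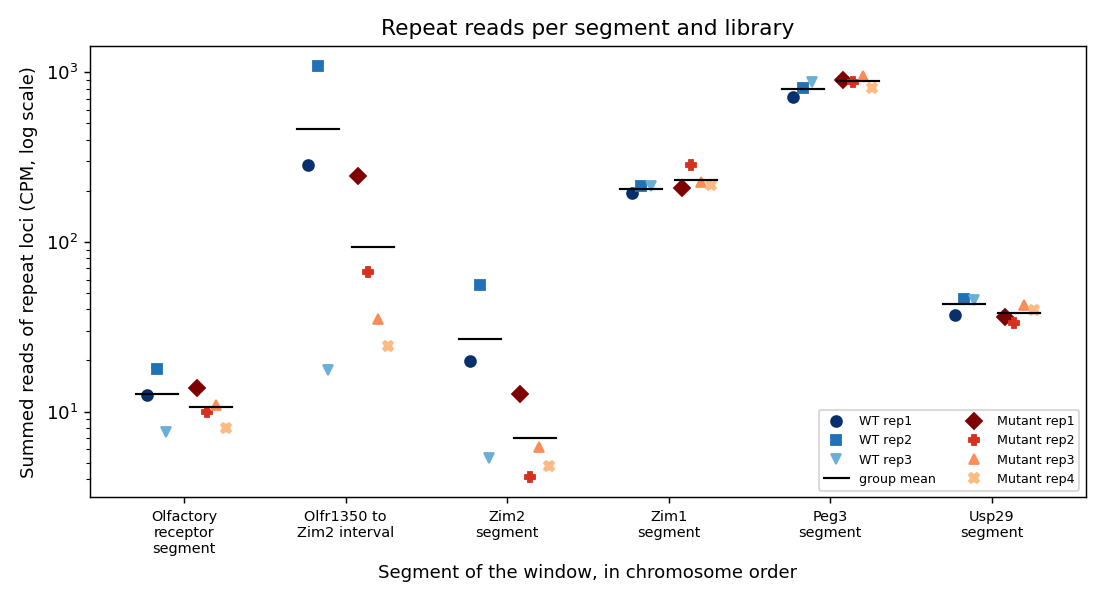
Summed CPM of repeat loci (log axis) in each segment of the window, in chromosome order, with 1 symbol per library and a line at each group mean. The symbols of the interval run from 17.5 to 1083 CPM and those of the Zim2 segment from 4.13 to 55.7 CPM, while those of the Peg3 segment stay between 716 and 957 CPM.

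The locus with most reads in the interval was an IAPEy-int of 7517 bp at chr7:6616683-6624199, the internal part of an IAP-type endogenous retrovirus. Its level was 68.3, 279 and 3.0 CPM in WT and 60.7, 13.5, 5.87 and 4.54 CPM in Mutant. WT rep2 stood above all others, and the library labelled WT rep3 was the lowest of the 7. The next in read number, chosen after values were seen, were a MuRRS4-int at chr7:6646319-6648495, an RMER20A at chr7:6650250-6650650, a RodERV21-int at chr7:6632953-6635009 and an L1_Mur1 at chr7:6640357-6643914. The MuRRS4-int, from another retrovirus-like family, had 19.1, 68.9 and 1.15 CPM in WT and 16.1, 5.23, 4.11 and 1.87 CPM in Mutant. The RMER20A, a fragment of an LTR, had 18.3, 51.1 and 2.08 CPM in WT and 14.8, 3.85, 2.05 and 2.14 CPM in Mutant. The L1_Mur1, a LINE fragment, had 15.3, 55.4 and 0.923 CPM in WT and 14.8, 3.03, 2.35 and 1.33 CPM in Mutant. All of these loci repeated the order of the whole interval at its upper end, with WT rep2 first and WT rep1 and Mutant rep1 next.

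This order held across elements of different families. Of the 20 interval loci with a mean of at least 10 reads, WT rep2 was highest at 20, and WT rep2, WT rep1 and Mutant rep1 were the top 3 in that order at 15. WT rep2 held between 54.2% and 73.1% of the summed CPM of each of these loci, with a median of 60.3%. By contrast, at the 17 such loci of the Zim1 segment its share lay between 10.4% and 19.8%, and at the 10 of the Peg3 segment between 11.4% and 18.3%. Over all 70 interval loci that averaged 1 read or more, WT rep2 was highest or tied at 68. The library labelled WT rep3 had no read at 41 of the 70 and Mutant rep4 none at 42, whereas WT rep1 had none at 1 and Mutant rep1 none at 4. A count of 0 allows up to 3 reads, which is between 0.573 and 0.880 CPM depending on the library, and this limit covers counting error only.

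**Figure D3:**
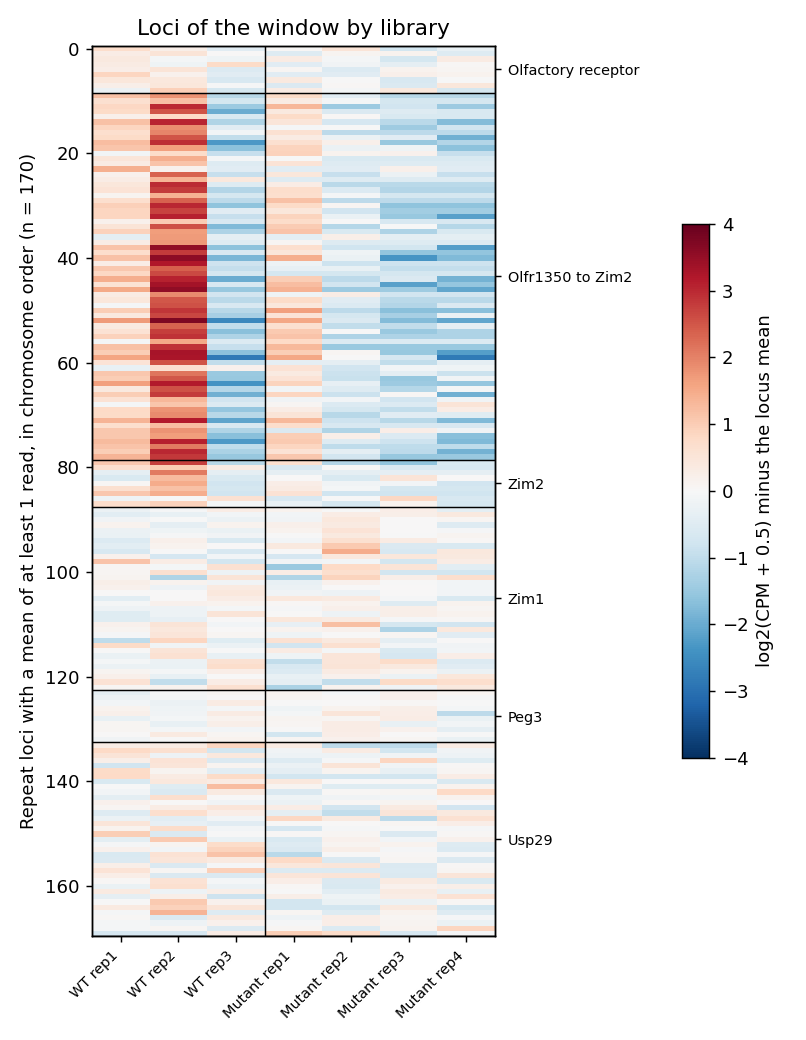
Level of each of the 170 loci that averaged 1 read or more, in chromosome order from top to bottom, by library, as log2(CPM + 0.5) minus the mean of that locus, with red above and blue below it. The interval from Olfr1350 to Zim2 shows red for WT rep2 and blue for the library labelled WT rep3, and the color fades within the Zim2 segment.

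LTR elements made up 71 of the 101 interval loci and 64.3% of the repeat length there, and they held 81.3% of its reads. LINEs, with 24 loci and 34.5% of the length, held 18.5% of the reads. Per kb of element, LTRs had 5.68, 22.3 and 0.329 CPM in WT and 4.92, 1.33, 0.645 and 0.447 CPM in Mutant. LINEs had 2.56, 8.75 and 0.172 CPM per kb in WT and 2.24, 0.641, 0.410 and 0.286 CPM per kb in Mutant. Both classes thus had the same order of libraries, with LTRs at the higher level. The LINE length includes an L1Md_T of 5677 bp, a young LINE with 9 reads over the 7 libraries. Among the LTRs, the IAPEy-int alone had 1723 reads. The part of these loci in the gap between the classes was not tested. The median log2 fold change was -2.23 over the 51 LTR loci and -1.88 over the 18 LINE loci with enough reads, against 0.022 over all 464695 loci tested. With the loci that had no read in any Mutant library set at the 3 reads that a count of 0 allows over the group, the medians were -2.23 and -1.73. Without the library labelled WT rep3, the medians were -2.78 over 52 LTR loci and -2.44 over 18 LINE loci (-2.78 and -2.26 at that limit), against 0.042 over all loci.

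Most elements of the interval lay on 1 strand, 83 on the plus strand and 18 on the minus strand, with 93.1% of the repeat length on the plus strand. The plus-strand elements held 93.7% of the reads, about their share of the length. In WT rep2, the library with most reads, the level was 17.5 CPM per kb on the plus and 16.3 CPM per kb on the minus strand. Because the reads carry no strand, the direction of the RNA is not known. Of the 18 minus-strand elements, 10 averaged 1 read or more, and all 10 had a log2 fold change below 0.

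The level also varied with distance from Zim2. In the 20 kb nearest to Zim2, repeat loci had 7.80, 24.7 and 0.456 CPM per kb in WT and 5.99, 1.74, 1.23 and 0.992 CPM per kb in Mutant. From 20 to 40 kb, where the IAPEy-int lies, WT rep2 reached 28.5 CPM per kb and the library labelled WT rep3 had 0.359 CPM per kb. From 40 to 60 kb, WT rep2 was at 7.56 and WT rep1 at 1.47 CPM per kb. From 60 to 80 kb they were at 9.08 and 2.85 CPM per kb. WT rep2 was above WT rep1 in every one of these stretches, by 3.16- to 5.13-fold. The stretch from 40 to 60 kb holds an L1Md_T of 5677 bp at chr7:6590736-6596412, a young LINE, which had 2, 5 and 2 reads in WT and none in the 4 Mutant libraries. Only reads that mapped to 1 place in the genome were counted, and young elements have many near-identical copies, so counts at this locus are uncertain. The locus is a large part of the 19.6 kb of repeat in that stretch, so its lower level per kb is uncertain too.

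**Figure D4:**
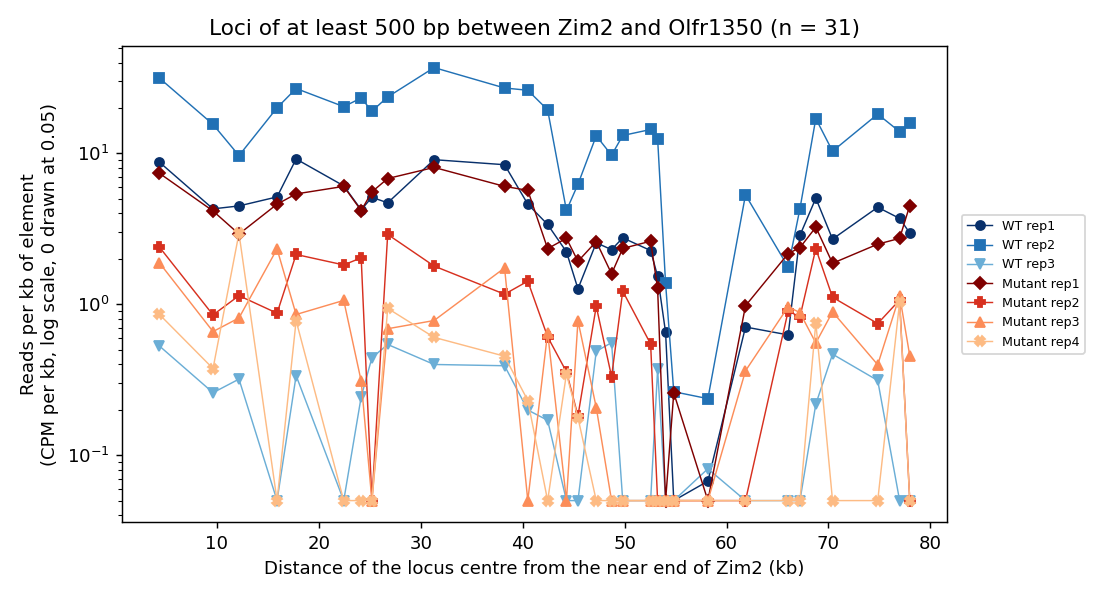
Reads per kb of element (CPM per kb, log axis, with 0 drawn at 0.05) for the 31 loci of at least 500 bp in the interval, against the distance of their centre from the near end of Zim2 in kb, with 1 line per library. WT rep2 is the highest line over most of the interval, WT rep1 and Mutant rep1 run together below it, and WT rep2 drops at the L1Md_T, where it had 5 reads.

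The pattern of the interval went on into Zim2 and was no longer seen at Zim1. The MRLTR33 in exon 5 of Zim2, whose sequence is shown above, had 12.4, 40.9 and 2.31 CPM in WT and 8.98, 2.2, 1.47 and 3.47 CPM in Mutant. WT rep2 was highest again, followed by WT rep1 and Mutant rep1. The 20 loci within the span of Zim2 together had 18.1, 53.3 and 3.0 CPM in WT and 11.6, 3.58, 4.40 and 4.27 CPM in Mutant. The MRLTR33 is 1 of them and held 65, 152 and 10 of their 95, 198 and 13 reads in WT. In Mutant it held 34, 8, 5 and 13 of 44, 13, 15 and 16, so the sum is not a separate sign. The 26 loci in the 8.9 kb between Zim2 and Zim1 had 1.72, 2.42 and 2.31 CPM in WT and 1.06, 0.550, 1.76 and 0.534 CPM in Mutant. There WT rep2 stood no longer apart, at 1.05-fold of the library labelled WT rep3, against 17.7-fold within Zim2 and 39.7-fold in the last 10 kb before it. That ratio rests on few reads, 9, 9 and 10 in WT and 4, 2, 6 and 2 in Mutant. Of these, 25 lay at an Lx8 that overlaps a Zim1 exon, so the place where the pattern ended is uncertain. At the other end, the first 20 kb of the interval had 34.5, 110 and 3.0 CPM in WT and 25.6, 11.6, 5.87 and 2.94 CPM in Mutant. The 20 kb before it, around Olfr1350, had between 0.231 and 4.03 CPM, with 1 to 15 reads per library. There WT rep2 was at 17.5-fold of the library labelled WT rep3, on 15 reads and 1 read. Whether the pattern ended at this side of the interval is thus uncertain too.

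Beyond Zim2 the loci were level across libraries. The 54 loci of the Zim1 segment summed to 193, 213 and 213 CPM in WT and 208, 285, 224 and 215 CPM in Mutant. Mutant rep2 was the highest, and the other 6 libraries lay within 193 to 224 CPM. The 10 loci of the Peg3 segment summed to 716, 809 and 881 CPM in WT and 904, 874, 957 and 809 CPM in Mutant, overlapping ranges with a log2 ratio of the means of 0.14. An L1ME4c of 77 bp in a Peg3 exon, at chr7:6705068-6705144, was the locus with most reads in the window. It had 376, 420 and 448 CPM in WT and 471, 452, 506 and 414 CPM in Mutant. A second LINE fragment in a Peg3 exon, an L1ME4a at chr7:6703974-6704050, had 198, 256 and 277 CPM in WT and 289, 255, 299 and 274 CPM in Mutant. An L2 in a Peg3 exon, at chr7:6725724-6725849, had 44.9, 48.4 and 54.0 CPM in WT and 51.8, 55.3, 52.5 and 40.8 CPM in Mutant. A B4A in a Zim1 exon, at chr7:6673554-6673680, had 34.9, 38.5 and 33.0 CPM in WT and 34.9, 51.4, 39.3 and 40.3 CPM in Mutant. Reads on such fragments cannot be told apart from reads of the gene's own mRNA.

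The Usp29 segment, with 145 loci, had 36.8, 46.3 and 45.2 CPM in WT and 36.2, 33.3, 42.5 and 39.5 CPM in Mutant. Its WT and Mutant ranges overlapped, with a log2 ratio of the means of -0.18. The olfactory receptor segment held 306 loci but few reads, with 12.6, 17.8 and 7.62 CPM in WT and 13.7, 9.90, 10.9 and 8.01 CPM in Mutant. Only 9 of its loci averaged 1 read or more, and 208 had none at all. The log2 fold changes of the Zim1 segment were spread around 0, with 16 of 35 loci below it and a median of 0.0079. In the interval, 69 of 70 were below 0 with a median of -2.16, or -2.15 with loci that had no Mutant read set at their limit. Of all loci tested, 48.8% were below 0. In the Zim2 segment 9 of 9 were below 0 (median -1.59, or -1.55 at that limit). So were 9 of 9 in the olfactory receptor segment (median -0.49), 26 of 37 in the Usp29 segment (median -0.33) and 4 of 10 in the Peg3 segment (median 0.054). Without the library labelled WT rep3, 14 of 36 loci of the Zim1 segment were below 0 with a median of 0.18, and 71 of 71 of the interval with a median of -2.74, or -2.71 at that limit. The Zim2 segment then had 10 of 11 below 0 (median -2.15, or -2.12 at that limit) and the olfactory receptor segment 12 of 12 (median -0.82). The Usp29 segment had 22 of 37 (median -0.24) and the Peg3 segment 2 of 10 (median 0.10).

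In the edgeR quasi-likelihood test across all 464695 loci (TMM scaling, Benjamini-Hochberg adjusted p under 0.1), 36 of the 170 window loci were called lower in Mutant, beside 0.0594% of all loci tested, and 0 were called higher, beside 0.0213% of all. Because this contrast chose the window, these counts are a description. The 36 were 35 loci of the interval and the MRLTR33 of Zim2, 28 LTRs and 8 LINEs, with a median log2 fold change of -2.38. WT rep2 was the highest library at all 36, and the library labelled WT rep3 was below Mutant rep1 at 35 and had no read at 13. At none of the 36 did the WT and Mutant libraries separate, so no locus met the rule for naming falls or rises. At an unadjusted p under 0.05, 65 window loci were lower, beside 2.23% of all loci, and 4 higher, beside 2.5% of all.

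These calls depended on single libraries and on the tool. Without the library labelled WT rep3, 48 of 177 window loci were called lower, beside 0.108% of all loci, and the groups separated at 32 of the 48. Without WT rep2, 0 of 161 were called in edgeR, beside 0.0163% of all loci, with 16 lower at an unadjusted p under 0.05, beside 2.13% of all. In DESeq2, which kept 59 window loci of 77285 in all for adjustment, 0 were called lower, beside 0.0142% of all, and 11 of 170 were lower at an unadjusted p under 0.05, beside 0.482% of all. With a mean of at least 10 reads, 0 of 51 were called lower in edgeR, beside 0.0279% of all such loci, with 21 lower at an unadjusted p under 0.05, beside 3.4% of all. In the test with the lower filter, edgeR drew every locus fully to the common trend of the spread (infinite prior degrees of freedom), so the differences within a group at a locus did not enter its p-value, and with the higher filter the prior degrees of freedom were 17.6.

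Loci at which all Mutant libraries lay on one side of all WT libraries were 5 lower and 3 higher of the 170, beside 2.84% and 3.12% of all loci tested. When the library labelled WT rep3 was left out, 57 of 177 were lower, 42 of them in the interval, beside 7.12% of all loci, and 8 were higher, beside 6.25%. With all libraries, the 5 lower ones were the L1Md_T of the interval, a B2_Mm2 in Zim2, an MLT1K in Zim1, and an RLTR20C1_MM and an Lx8 in Usp29. The 3 higher ones lay in the Zim1 segment. One of them, a PB1D7 in a Zim1 exon at chr7:6674548-6674665, had 29.8, 31.2 and 29.1 CPM in WT and 38.3, 51.2, 35.5 and 33.6 CPM in Mutant.

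The FPKM table held 13 genes that overlap the window, of which 3 had a mean of at least 0.5 FPKM. Peg3, which encodes a zinc-finger protein, was by far the highest, with 117, 90.8 and 117 FPKM in WT and 103, 108, 100 and 87.5 FPKM in Mutant. WT rep2, the highest library in the interval, was the second lowest for Peg3. The log2 fold change of Peg3 on log2(FPKM + 0.5) was -0.11 with a standard error of 0.11. Zim1, a zinc-finger gene, had 14.2, 13.4 and 13.2 FPKM in WT and 13.4, 19.2, 12.4 and 12.6 FPKM in Mutant (log2 fold change 0.058, standard error 0.14). Usp29, which encodes a deubiquitinating enzyme, had 2.78, 1.36 and 1.63 FPKM in WT and 1.82, 1.73, 1.48 and 1.24 FPKM in Mutant (log2 fold change -0.19, standard error 0.20), and without WT rep1 its log2 fold change was 0.046. For each of these genes the groups overlapped, beside 7.59% of all genes tested with every Mutant library below every WT library and 7.31% with every one above. In order of level, Peg3 was above Zim1 and Zim1 above Usp29 in every library.

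The other 10 window genes lay below the filter. The 8 olfactory receptor genes, which encode odorant receptors of the nose, reached at most 0.216 FPKM, and 2 of them were listed at 0 in every library. Smim17, listed as Gm16532, had a mean of 0.117 FPKM. Peg3os, an antisense transcript that overlaps Peg3, was listed near 0, and without strand its reads cannot be told apart from those of Peg3. Zim3, of the same imprinted cluster but beyond the window, had 2.90, 0.707 and 0.516 FPKM in WT and 0.624, 0.875, 0.522 and 0.6 FPKM in Mutant. WT rep1 alone was high (log2 fold change -0.49, standard error 0.37), and without it the value was 0.052. The FPKM table held no gene under the names Zim2 or Zfp264, so their levels were not analysed here.

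Imprinted genes elsewhere were read for comparison. Of a list of 30, 29 had enough FPKM to be tested, 0 were past the adjusted p of 0.05 in limma, beside 0.00715% of all genes, and 3 had an unadjusted p under 0.05, beside 17.0% of all. With 8 below and 21 above 0, their median log2 fold change was 0.075, against 0.0084 over all 13988 genes tested. The list summed to between 2887 and 3578 FPKM in WT and between 3112 and 3484 FPKM in Mutant. Gene calls depended on the library labelled WT rep3: without it, limma called 722 of 14019 genes (5.15%), 560 lower and 162 higher. Of the 29 imprinted genes, Inpp5f was then called lower and Ndn higher, and 9 had an unadjusted p under 0.05, beside 23.6% of all, with a median of 0.11.

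The profile of the interval over the 7 libraries was set beside that of each of the 13988 genes. Likeness was measured as the root mean square difference of the log2 levels after centring, a measure chosen after values were seen, with 0 for equal profiles. The nearest genes were Gtsf1 (0.39), which encodes a zinc-finger protein of the piRNA pathway, Morc1 (0.54), a germ-cell ATPase needed for silencing of transposons, and Nxf2 (0.57), an RNA export factor. They were followed by Gm6880 (0.70), Rhox10 (0.71), Rrad (0.72), Tdrd9 (0.74), Cox7b2 (0.74), Nanos2 (0.75) and Gm364 (0.79). The median over all genes was 2.03, and Peg3, at 2.06, was no nearer than that. The profiles were not scaled, so any gene level across libraries differs by about the spread of the interval itself. The distance of Peg3 therefore adds nothing to its being level, and genes of narrow range could not come near. The interval was taken as log2 CPM and the genes as log2(FPKM + 0.5). Gtsf1 had 10.5, 33.5 and 0.551 FPKM in WT and 7.92, 2.10, 0.459 and 0.864 FPKM in Mutant. Morc1 had 11.1, 26.6 and 1.05 FPKM in WT and 8.05, 2.30, 0.795 and 0.940 FPKM in Mutant. Both had WT rep2 first, WT rep1 next and Mutant rep1 after it, with the library labelled WT rep3 among the lowest 3. The exact order of the interval was found in 39 genes, Nanos2 among them.

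**Figure D5:**
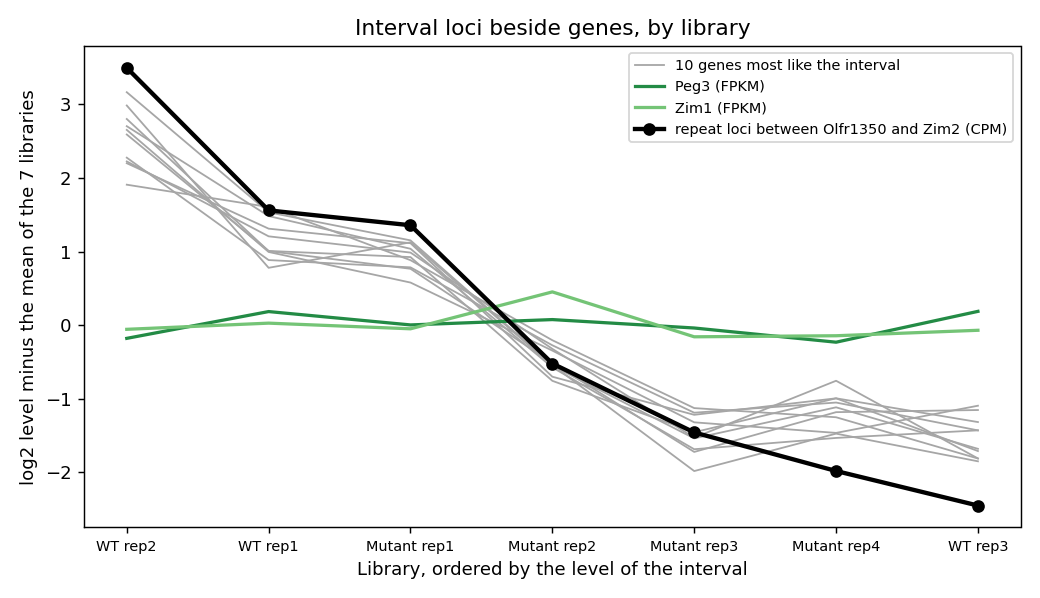
Centred log2 levels (log2 level minus the mean of the 7 libraries) of the interval (CPM, black), of the 10 genes most like it (log2(FPKM + 0.5), grey) and of Peg3 and Zim1 (green), with libraries ordered from the highest to the lowest level of the interval. The grey lines fall with the black line from WT rep2 to the Mutant libraries, as they were chosen to, and the green lines stay near 0.

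Markers of germ cells shared the direction of the group difference with the interval, but had a smaller range and another order of libraries. All 10 germ cell genes listed had a log2 fold change below 0, with a median of -0.81, 0 past the adjusted p of 0.05 in limma and 7 at an unadjusted p under 0.05, the threshold that 17.0% of all genes passed. When the library labelled WT rep3 was left out, the median was -1.09, and 7 were called lower (Dazl, Ddx4, Dnd1, Nanos3, Pou5f1, Sall4 and Sycp3), beside 5.15% of all genes called in either direction. Their summed level was 1367, 1009 and 592 FPKM in WT and 640, 550, 541 and 482 FPKM in Mutant, a 2.84-fold range with WT rep1 as the highest, and none of the 10 was at 0. Ddx4, an RNA helicase of germ cells, had 102, 94.7 and 53.1 FPKM in WT and 39.8, 33.6, 42.2 and 34.9 FPKM in Mutant. For Ddx4 the library labelled WT rep3, the lowest in the interval, lay above every Mutant library. In the sum of the 10 genes it lay below Mutant rep1. Divided by Ddx4, the interval spanned 34.6-fold, with 2.78, 11.4 and 0.330 CPM per FPKM in WT and 6.17, 1.99, 0.827 and 0.696 CPM per FPKM in Mutant. Divided by Gtsf1 and by Morc1, which were picked for their likeness to it, the interval spanned 2.82- and 2.62-fold.

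Other cell types were read in the same way. The 10 fetal Leydig cell genes had log2 fold changes above 0, with a median of 0.40, 7 at an unadjusted p under 0.05 (17.0% of all genes) and sums of 1876 to 3008 FPKM in WT and 2832 to 3505 FPKM in Mutant. The 10 Sertoli cell genes, 8 of them above 0 and 1 at an unadjusted p under 0.05, summed to 398 to 566 FPKM in WT and 502 to 579 FPKM in Mutant. Skeletal muscle genes, which can come with adjoining tissue, ranged from 1.85 to 26.5 FPKM in WT and 1.52 to 46.5 FPKM in Mutant. The 5 tested were all above 0, with a median of 0.77 and 0 at an unadjusted p under 0.05. The 8 interstitial, 6 endothelial, 4 macrophage and 4 mesonephric genes tested had medians of 0.15, 0.0019, 0.19 and -0.20, with 1, 0, 0 and 1 at an unadjusted p under 0.05. In limma, 0 genes of any of these lists were past the adjusted p of 0.05. With the library labelled WT rep3 left out, the Leydig cell list had a median of 0.38 and the Sertoli cell list one of 0.31. Of these lists, 1 and 2 genes were called higher (Nr5a1, which is in both lists, and Ptgds), beside 5.15% of all genes called in either direction. At an unadjusted p under 0.05 were 5 of 10 Leydig and 7 of 10 Sertoli cell genes, beside 23.6% of all genes. In the other somatic lists 0 genes were called. Of the interstitial, endothelial, macrophage, mesonephric and muscle genes, 0, 1, 2, 1 and 0 had an unadjusted p under 0.05. The part of cell number in the level of the interval was not tested.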

How the data were processed

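Testes of 7 embryos at E14.5 were sequenced, 3 labelled wild-type and 4 Mutant. The authors aligned reads to mm10 with TopHat2 2.0.12; per the labels' tools, Cuffnorm made the deposited FPKM values per gene, and HTSeq made the deposited counts of uniquely mapped reads per RepeatMasker element, which are not normalized. Headers of both tables run 2 column names together, and columns were read by their order in the header. The members and lists were chosen with earlier results of these data known.

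Loci that averaged 1 read or more were tested with edgeR 4.0.16 (quasi-likelihood, TMM, adjusted p under 0.1), and with DESeq2 1.42.0 as an alternative. Genes averaging 0.5 FPKM or more were tested with limma 3.58.1 on log2(FPKM + 0.5), with a trend and an adjusted p under 0.05. Fragment depth behind FPKM is unknown. Both tests were run on simulated data first. R 4.3.3 and Python 3.11.15 were used.

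Named loci included the 5 with most reads in the window and those at its edges. No locus met the rule for the largest called changes in groups that do not overlap. The 5 with most reads in the interval were added after values were seen. Named genes were those of the window and of the Peg3 cluster. Positions and exons came from GENCODE M21, and promoters from RefSeq. Alternatives were other scalings, filters, pseudocounts and thresholds, a replicate block, and each library left out in turn. Each library is 1 embryo. For loci, the p-values rest on a common trend of the spread.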

Additional observations from a re-analysis of the deposited data

Results flagged for a closer look

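In groups of 4 libraries, 20 sets of values were searched for a library far from the others, and 4 had one, where chance gives about 1 in 20. Zim1 was at 19.23 FPKM in Mutant rep2, far above the other 3 Mutant libraries at 12.4 to 13.4 FPKM. In Mutant rep1, the IAPEy-int of the interval was at 60.73 CPM, the RMER20A at 14.79 CPM and the L1_Mur1 at 14.79 CPM, each far above the other Mutant libraries. The 3 loci share that library and lie in the same interval, so they are not separate signs.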

How the results depend on the processing

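The 36 window loci called lower in edgeR became 0 with a mean of at least 10 reads, 0 in DESeq2, 18 with a block on replicate numbers, and between 0 (without WT rep2) and 48 (without the library labelled WT rep3) when 1 library was left out. In the other alternatives, a threshold of 0.05, DESeq2's size factors, library size only and no filter, 33 to 36 loci were called, and none gave a locus called higher. Replicate numbers pair no samples by the labels, and same-numbered libraries did not deviate together, with correlations of 0.042, -0.086 and 0.031. With the replicate block, the log2 fold change of the window sum was -0.17, that of Peg3 -0.051, the log2 difference of the interval -1.08 and that outside it 0.15. Leaving out 1 library, the window sum ranged from -0.46 to 0.061, the interval from -3.46 to -0.69 and the rest of the window from 0.035 to 0.15. Over all genes, limma called 722 without the library labelled WT rep3 and between 0 (with the replicate block) and 17 (with no filter) in the other alternatives, against 1. Peg3 ranged from -0.23 to -0.050, Usp29 from -0.36 to 0.046, Zim1 from -0.084 to 0.12 and Zim3 from -0.82 to 0.052. As a mean of log2 values per library, the interval gave -1.52. The alternatives for the interval and the rest of the window were chosen after seeing the data. With 1481 reads in WT rep1 but 76 in the library labelled WT rep3, single loci of the interval rest on few reads in 3 libraries, and elements with near-identical copies are undercounted.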

Other observations

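Stretches with a like profile of repeat reads were also seen elsewhere. Among 13469 bins of 50 kb with a mean of at least 50 reads, the nearest to the interval outside of it was chr7:11950000-11999999, with a root mean square difference of 0.46. It had 12.2, 60.8 and 0.692 CPM in WT and 9.77, 4.13, 2.64 and 2.4 CPM in Mutant. Further ones were chrX:161350000-161399999 at 0.68 and chr12:112000000-112049999, which lies within Tdrd9, at 0.78. In the bin of Tdrd9, repeat reads were at 15.3, 50.8 and 3.46 CPM in WT and 12.1, 6.33, 4.99 and 2.94 CPM in Mutant, and the mRNA of Tdrd9, a helicase of the piRNA pathway, was at 4.11, 14.1 and 0.584 FPKM in WT and 2.96, 1.32, 0.427 and 0.339 FPKM in Mutant. WT rep2 was highest in each of these bins. The bins were picked for their likeness, so their order of libraries is a description.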
